A study of Mus musculus with 24 samples.

Results

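The difference between Lkb1-/- and wild-type (WT) MEFs in their transcriptional response to IL-1β was measured in 12 of the 24 RNA-seq libraries of the series. These 12 libraries form 4 groups of 3: WT control, WT with IL-1β, Lkb1-/- control and Lkb1-/- with IL-1β, the treated cells having received 0.1 ng/mL IL-1β for 6 hours. The quantity compared was the interaction, that is the log2 response of Lkb1-/- cells (IL-1β minus control) minus the log2 response of WT cells, so that a value above 0 means a stronger rise or a weaker fall in Lkb1-/- cells. The other 12 libraries come from A1 and A2, a pair of clones of Lkb1-/-/Crtc2-/- MEFs that were treated in the same way. All are 3T3 mouse embryonic fibroblasts (MEFs), and WT and Lkb1-/- are each represented by a single cell line, so that the effect of losing Lkb1 (gene symbol Stk11) and any other difference between the lines cannot be told apart. Nothing in the labels says whether the 3 libraries of a group came from separate experiments, and p-values therefore measure the spread between these libraries, which may be technical.

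IL-1β binds the IL-1 receptor and signals through MYD88 and IRAK kinases to NF-κB and MAP kinases, which switch on genes for cytokines, chemokines and acute-phase proteins. LKB1 is a kinase that activates the AMPK-related kinases, among them the salt-inducible kinases (SIKs), which hold CRTC coactivators of the transcription factor CREB in the cytoplasm. Fibroblasts answer IL-1β with secreted factors such as IL-6, LIF and chemokines that act on neighboring cells.

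Counts on genes lay between 38842901 and 48594394 per library in the 12 libraries. Pairs mapping outside genes took 9.31 to 13.8% of the pairs in the replicate-1 libraries, the highest share being in the Lkb1-/- IL-1β library, and 7.91 to 8.90% in the others. Stk11 (chr10:80115803-80130682) was measured at 83.4 to 87.9 CPM (counts scaled to a common library size) in the 6 WT libraries and at 16.3 to 18.7 CPM in the 6 Lkb1-/- libraries, the lower group being the one labelled as the knockout. Of 10 fibroblast markers, Thy1 had at most 3 counts in any of the 12 libraries and Fap in any Lkb1-/- library. Dcn and Pdgfra had 15 to 78 and 166 to 261 counts in WT libraries, and 8821 to 26849 and 8987 to 16940 in Lkb1-/- libraries. Col1a2 had 18119 to 39625 counts in WT and 1187 to 3162 in Lkb1-/- libraries. Counts of Vim, Col1a1, Col3a1, Pdgfrb and Twist1 overlapped between the lines. Markers of leukocytes, endothelium and epithelium summed to at most 2.24 CPM. Of the leukocyte markers only Csf1r had over 3 counts, with 52 to 99 in Lkb1-/- libraries and 1 to 6 in WT libraries. The lines also differed in sex-linked transcripts: a list of 4 Y-linked genes and Xist summed to at most 0.21 CPM in WT libraries and to 248 to 261 CPM in Lkb1-/- libraries, where Xist had at most 3 counts.

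The response to IL-1β differed between the lines for 43 of 17522 genes tested (0.245%) at a false discovery rate (FDR) under 0.05 when libraries were compared by group alone. In 24 of them the difference was above 0 (0.137% of genes tested) and in 19 below (0.108%). The share above 0 was 55.8%, and it was 46.1% with no filter on low counts, 70% with at least 10 counts in every library and between 43.2% and 72.5% with 1 library left out. Libraries of one genotype that carried the same replicate number deviated together, and with that number as a block within each genotype 1003 genes were called (5.72%), 367 of them above 0 (2.09%) and 636 below (3.63%). This balance depended on the scaling and the libraries: 36.6% of the calls were above 0, against 49.0% with DESeq2's size factors, 53.0% in a fit of the 12 libraries alone and 60.5% without Lkb1-/- replicate 1. All 43 genes of the first comparison were among the 1003, in the same direction. Most of the differences called with the block were small: 59 of the 367 and 95 of the 636 were over 1 in log2 size. In bulk libraries fewer responding cells and less RNA per cell cannot be told apart. For each genotype alone, without the block, IL-1β raised 268 genes (1.53%) and lowered 128 (0.731%) in WT cells, and raised 464 (2.65%) and lowered 367 (2.09%) in Lkb1-/- cells. With the block it raised 1379 (7.87%) and lowered 1444 (8.24%) in WT cells, and raised 1516 (8.65%) and lowered 2450 (14%) in Lkb1-/- cells. An adjusted p below is from edgeR's quasi-likelihood test without the block unless the block is named, adjusted over all genes tested, and values after ± are standard errors.

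Of the 24 genes with a difference above 0, 22 were called as risen in Lkb1-/- cells and 5 in WT cells without the block. In WT cells 3 of the 24 were called as fallen. Of the 19 genes with a difference below 0, 13 were called as fallen in Lkb1-/- cells and the other 6 as risen in WT cells. In the plot of both responses the genes above the diagonal therefore sit mostly along the vertical axis.

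**Figure D1:**
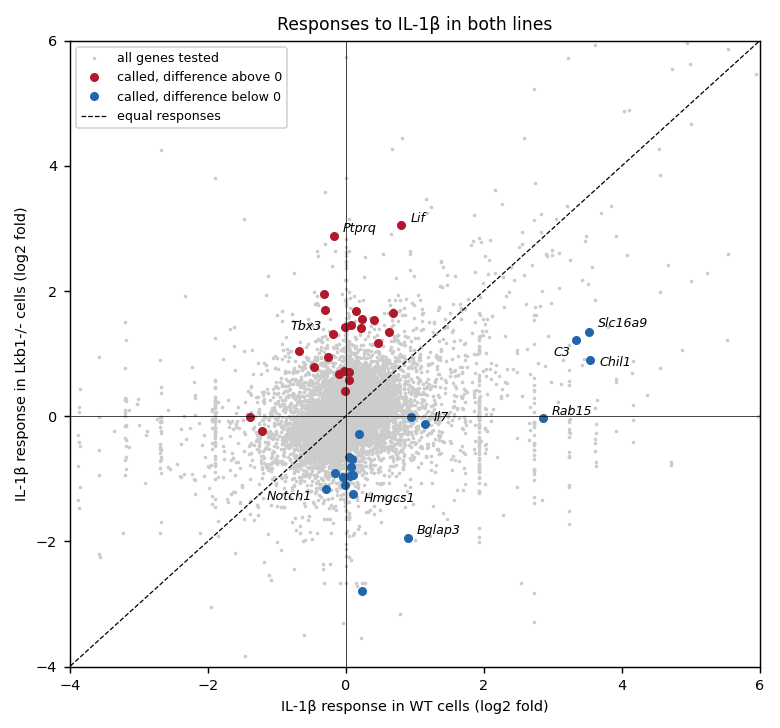
Log2 response to IL-1β in WT cells (horizontal axis) and in Lkb1-/- cells (vertical axis), with 1 point per gene tested. The 43 called genes are in red (24, difference above 0) and blue (19, difference below 0), the dashed line marks equal responses, and 26 genes lie outside the axes. Most red points are above 0 in Lkb1-/- cells and near 0 in WT cells, and vertical rows of grey points are genes with almost no counts in WT cells.

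Among the cytokines of the IL-6 family, Lif, which signals through the LIF receptor and gp130, was the only one whose response differed between the lines without the block. Lif (chr11:4257557-4272514) was measured at 13.4, 12.2 and 12 CPM in WT control libraries and at 22.2, 20.6 and 23.1 CPM after IL-1β. Lkb1-/- libraries had 10.9, 9.42 and 7.43 CPM in controls and 81.0, 67.9 and 80.8 CPM after IL-1β. The control groups did not overlap and were lower in Lkb1-/- cells, whereas every stimulated Lkb1-/- library was above every other library. Lif rose 1.75-fold in WT and 8.28-fold in Lkb1-/- cells, a log2 difference of 2.24 ± 0.21 (95% interval 1.80 to 2.69, adjusted p = 7e-06).

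Il6, the founding member of the family, was measured at 0.067, 0.138 and 0.156 CPM in WT control libraries and 2.49, 4.44 and 4.24 CPM after IL-1β. In Lkb1-/- cells Il6 was at 2.22, 2.02 and 1.43 CPM before and 121, 109 and 125 CPM after IL-1β. Each stimulated level in Lkb1-/- cells was thus far above each in WT cells, and so was each control level. Il6 rose in both lines, and the difference between the log2 responses was 1.03 ± 0.68 (95% interval -0.41 to 2.46, adjusted p = 1, and 0.43 with the block). Il11, another gp130 ligand, was at 0.678 to 1.92 CPM in the 6 WT libraries, and in Lkb1-/- cells at 10.2 to 13.4 CPM before and 17.9 to 24.6 CPM after IL-1β. Its difference of 0.84 ± 0.40 passed only with the block (0.81 ± 0.22, adjusted p = 0.027 against 0.89 without it). Of 7 family members tested, 1 was called above 0 without the block (Lif) and 2 with it (Lif and Il11), beside 0.137% and 2.09% of all genes. None was below 0, and their median difference was 0.31 beside -0.02 over all genes tested.

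**Figure D2:**
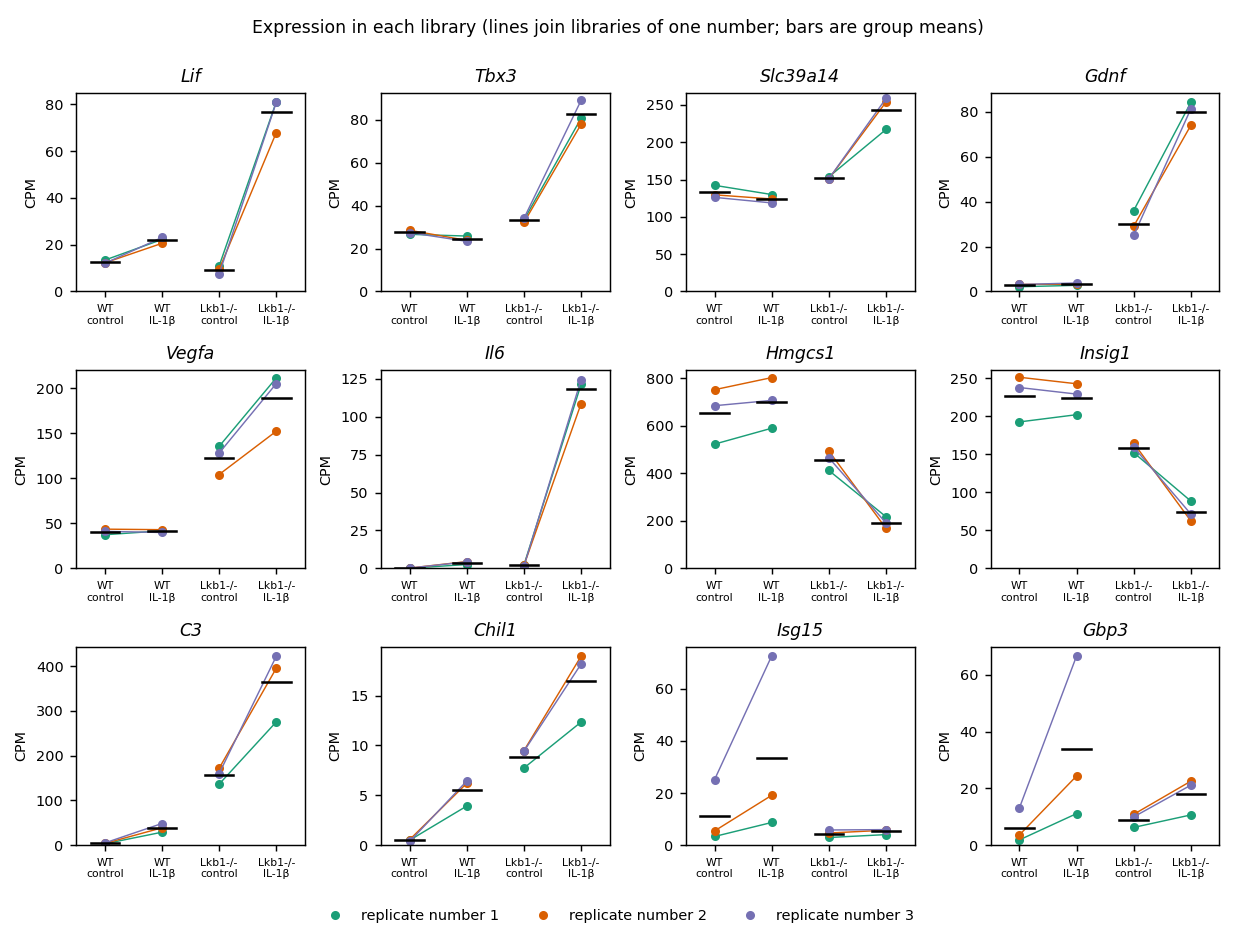
CPM of 12 genes (vertical axes, from 0) in the 12 libraries by group. Colors give the replicate number, thin lines join control and IL-1β libraries of one number and genotype, and black bars are group means (n = 3). Tbx3, Slc39a14 and Gdnf climb between the Lkb1-/- groups and stay within a narrow range in WT cells, Lif climbs in both lines and farther in Lkb1-/- cells, Hmgcs1 and Insig1 drop between the Lkb1-/- groups, and Isg15 and Gbp3 climb in WT cells with replicate 3 the highest.

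The windows from 250 bases before to 50 after the RefSeq gene starts (GRCm38.p6) of called genes were searched on both strands for TGACGTCA (the CREB site, CRE), TGACG (its core), GGANTTTCC (NF-κB), TGANTCA (AP-1) and TTCNNNGAA (STAT). Lif (chr11:4257318-4257617, plus strand) and Plscr1 (chr9:92249944-92250243, plus strand) are shown because, of the first 3 genes above 0 with a window in the order of adjusted p (Lif, Afap1l2 and Plscr1), they held a match. Capitals mark an AP-1 match in Lif and a STAT match in Plscr1.
Lif: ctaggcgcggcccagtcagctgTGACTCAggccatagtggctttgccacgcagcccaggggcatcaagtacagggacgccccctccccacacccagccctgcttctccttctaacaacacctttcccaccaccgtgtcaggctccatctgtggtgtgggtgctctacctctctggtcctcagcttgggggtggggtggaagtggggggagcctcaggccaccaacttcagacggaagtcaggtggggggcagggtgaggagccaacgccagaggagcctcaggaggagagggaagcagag
Plscr1: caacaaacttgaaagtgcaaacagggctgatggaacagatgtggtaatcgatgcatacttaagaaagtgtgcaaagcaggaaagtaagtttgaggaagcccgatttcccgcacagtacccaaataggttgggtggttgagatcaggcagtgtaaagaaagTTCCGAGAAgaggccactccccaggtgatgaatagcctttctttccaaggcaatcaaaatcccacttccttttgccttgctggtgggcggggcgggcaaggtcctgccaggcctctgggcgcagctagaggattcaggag
The AP-1 letters occur in 7.81% of all 32851 windows and the STAT letters in 8.30%. Of the 24 genes called above 0, 15 had a window, and none of these held the whole CRE, which 2.03% of all genes with a window hold. Of the first 3 genes below 0 with a window, Rab15 had an AP-1 and a STAT match in separate windows, and Slc16a9 and Sh2b2 had none. The core TGACG was in 1 of the 15 genes above 0 (6.67%) and in 23.0% of all genes. Of the genes called below 0, 14 had a window, and 5 of these held the core (35.7%). A match describes letters only, and other starts and distant elements were not searched.

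Among receptors and signal carriers of this family, 24 genes were tested and none was called without the block, where 3 had an unadjusted p under 0.05, with 3 above 0 and 5 below 0 with it, beside 2.09% and 3.63% of all genes tested. Il6st, which encodes gp130, was at 565, 632 and 596 CPM in WT controls and 619, 757 and 675 CPM after IL-1β. The Lkb1-/- libraries were at 436, 538 and 478 CPM before and 639, 906 and 849 CPM after. Its difference was 0.53 ± 0.21 (adjusted p = 0.73, and 3.5e-05 with the block), and Jak2 and Lifr were the others above 0 with the block. Osmr, the oncostatin M receptor, rose in WT cells from 28.9, 25.7 and 31.4 CPM to 37.8, 49.2 and 49.7 CPM and was already at 212 to 235 CPM in Lkb1-/- controls, with 215 to 262 CPM after IL-1β. Its difference with the block was -0.56 ± 0.10 (adjusted p = 0.0011). Stat2, Stat3 and Il6ra were also below 0 with the block, at -0.66, -0.39 and -0.25.

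Several transcriptional regulators and secreted factors rose in Lkb1-/- cells and did not pass the test in WT cells. Tbx3, a T-box transcription factor, had the smallest adjusted p of all genes. It was at 26.6, 28.5 and 27.4 CPM in WT controls and 25.8, 23.8 and 23.4 CPM after IL-1β, and in Lkb1-/- cells it went from 33.3, 32.2 and 34.1 CPM to 80.7, 77.9 and 89.0 CPM. The difference was 1.49 ± 0.12 (chr5:119670669-119684724, adjusted p = 4.8e-07). Lmo4, a LIM-only transcriptional cofactor, stayed between 58.6 and 64.9 CPM in WT libraries and went from 103, 115 and 113 CPM to 240, 334 and 335 CPM in Lkb1-/- cells (difference 1.38 ± 0.20, adjusted p = 0.0016). Within the stimulated group the replicate-1 library was the lowest.

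Sema3c, a secreted guidance cue, started lower in Lkb1-/- cells (33.3, 26.1 and 25 CPM) than in WT cells (67.7, 52.4 and 48.2 CPM). After IL-1β it reached 80.7, 87.6 and 78.6 CPM in Lkb1-/- cells and 79.0, 63.0 and 56.4 CPM in WT cells, a difference of 1.31 ± 0.19 (adjusted p = 0.0016). Gdnf, a neurotrophic factor that signals through RET, was at 2.10 to 3.78 CPM in all WT libraries and went from 36.0, 29.0 and 24.9 CPM to 84.1, 73.9 and 81.2 CPM in Lkb1-/- cells. Its difference was 1.19 ± 0.23 (adjusted p = 0.026). The call for Gdnf was lost in 9 of 23 alternative settings, among them unstranded counts and a fit of the compared groups alone, with an adjusted p of up to 0.62. Vegfc, which drives lymphatic growth, did not separate the WT groups (14.8 to 19.1 CPM) and moved from 18.7 to 21.9 CPM up to 33.0 to 33.9 CPM in Lkb1-/- cells (difference 0.74 ± 0.15, adjusted p = 0.031). Ltbp2, a matrix protein related to TGF-β binding proteins, differed by 1.53 ± 0.32 at low levels of 0.857 to 4.08 CPM (adjusted p = 0.046), a call lost in 13 of 23 settings, while that for Vegfc was lost in 7.

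Slc39a14 encodes the zinc and manganese importer ZIP14 (chr14:70303469-70351425). It was at 142, 130 and 126 CPM in WT controls and 130, 124 and 119 CPM after IL-1β, and at 154, 151 and 151 CPM before and 217, 254 and 259 CPM after IL-1β in Lkb1-/- cells. The WT groups overlapped and the Lkb1-/- groups did not, with a difference of 0.77 ± 0.11 (adjusted p = 0.00077). Plscr1, a phospholipid scramblase, rose in both lines, 1.55-fold in WT and 2.55-fold in Lkb1-/- cells (difference 0.72 ± 0.09, adjusted p = 0.00046). Rab11fip1, an effector of RAB11 in recycling endosomes, likewise rose 1.38-fold and 2.25-fold, and Pim2, a serine/threonine kinase, 1.60-fold and 3.12-fold, with calls lost in 10 and 12 of 23 settings. Tyms, the thymidylate synthase, had the smallest called difference above 0, 0.41 ± 0.07, and was at 101 to 106 CPM in every WT library.

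Some of the called genes were measured at very different levels in the lines to begin with. Ptprq, a receptor-type phosphatase, was at 30.2 to 50.1 CPM in WT libraries and went from 0.0928 to 0.407 CPM up to 1.61 to 2.49 CPM in Lkb1-/- cells (difference 3.06 ± 0.57). Ppm1h, a protein phosphatase, and P2ry10b, a G-protein-coupled receptor gene, were likewise lower in Lkb1-/- controls, by log2 differences of -4.22 and -3.57 between the control groups, and rose 3.86-fold and 2.7-fold in that line. Cfap69 was higher in Lkb1-/- controls by a log2 difference of 2.40, and went from 33.0, 26.7 and 30.3 CPM to 91.9, 82.7 and 87.7 CPM in that line. Over the 24 genes the control level was higher in Lkb1-/- cells for 10, lower for 8 and not called for the rest, beside 30.1% of all genes higher and 25.8% lower. Also above 0 were Afap1l2, Dpy19l1, Cpeb2, Ttc39c, Slco3a1 and Gm43445, with differences between 0.53 and 1.99.

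For Map2k6 and Akap12 the difference was above 0 with a fall in WT cells and no called response in Lkb1-/- cells, while Afap1l2 fell in WT and rose in Lkb1-/- cells. Map2k6, which encodes the p38-activating kinase MKK6, went from 1.74, 2.74 and 2.69 CPM to 0.938, 0.841 and 0.957 CPM in WT cells and lay between 19.7 and 24.2 CPM in all Lkb1-/- libraries (difference 1.37 ± 0.22, adjusted p = 0.0041). Akap12, an anchor for protein kinase A, fell 2.31-fold in WT cells from 1.34 to 2.40 CPM and was at 35.5 to 46.9 CPM in Lkb1-/- cells, with its call lost in 11 of 23 settings. Nt5e (the ectonucleotidase CD73) and Tmem119 also fell in WT cells, and their differences of 1.43 ± 0.14 and 1.15 ± 0.11 were called with the block. Without it their adjusted p were 0.18 and 0.57. Tmem119 was also lower after IL-1β in every Lkb1-/- pair, by log2 responses of -0.85, -0.80 and -0.81.

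Of 22 other cytokines and growth factors, Vegfc was called above 0 and Il7 below 0 without the block, beside 0.137% and 0.108% of all genes, and 4 were above and 3 below with it, beside 2.09% and 3.63%. Vegfa was at 37.3 to 43.5 CPM in all WT libraries and went from 135, 104 and 128 CPM to 212, 152 and 205 CPM in Lkb1-/- cells, with a difference of 0.60 ± 0.21 without the block (adjusted p = 0.57) and 0.59 ± 0.07 with it (6.5e-06). Csf3, the granulocyte growth factor G-CSF, rose in both lines and its difference was 2.20 ± 0.65 with the block (adjusted p = 0.047). It was not called without the block. Its size rests on few control reads, with 10 to 17 counts in WT controls and 3 to 12 in Lkb1-/- controls. After IL-1β it had 191 to 252 and 453 to 595 counts. Ptgs2, which encodes the inducible cyclooxygenase COX-2, went from 173, 118 and 97.8 CPM to 390, 334 and 284 CPM in WT cells and from 177, 104 and 104 CPM to 789, 577 and 757 CPM in Lkb1-/- cells. Control levels overlapped between the lines and stimulated levels did not. The difference for Ptgs2 was 1.09 ± 0.22 with the block (adjusted p = 0.0028, and 0.45 without it), that for the prostaglandin E synthase Ptges 1.91 ± 0.42, and that for the phospholipase Pla2g4a 0.51 ± 0.06. Ptges had only 6 to 28 counts in the 6 WT libraries. Of 15 genes tested for prostaglandin synthesis and receptors none was called without the block. Ptgs2, Ptges and Pla2g4a were the 3 called above 0 with it, beside 2.09% of all genes tested. Without the block 7 of the 15 rose in Lkb1-/- cells and 1 in WT cells, beside 2.65% and 1.53%. Of the 15, however, 6 had at most 3 counts in every library of some group. Ptger2 had no read in any WT library, so that no rise could be measured there. Tnfsf11, which encodes the osteoclast factor RANKL, had no read in any WT library and went from 46.8, 49.9 and 60.1 CPM to 95.3, 129 and 151 CPM in Lkb1-/- cells, so that no difference of responses can be given.

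Genes of cholesterol synthesis fell after IL-1β in Lkb1-/- cells and did not in WT cells. These enzymes are switched on together by the transcription factor SREBP2 when sterols are low, and they turn acetyl-CoA units into cholesterol. Of 21 genes tested, 21 fell in Lkb1-/- cells and 0 in WT cells without the block, beside 2.09% and 0.731% of all genes. The difference of responses was called below 0 for 7 of the 21 without the block and for 21 of the 21 with it, beside 0.108% and 3.63% of all genes tested. The median log2 response was 0.05 in WT and -0.84 in Lkb1-/- cells, and the median difference was -0.88, beside -0.02 over all genes. The list was known from earlier results of these data and its direction is not independent evidence.

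Hmgcs1, the synthase that commits acetyl-CoA units to the pathway (chr13:119690379-119708260), was at 522, 751 and 684 CPM in WT controls and 589, 802 and 706 CPM after IL-1β. It went in Lkb1-/- cells from 411, 493 and 465 CPM to 217, 168 and 191 CPM. The WT groups overlapped, and each stimulated Lkb1-/- library was below all others, with a difference of -1.35 ± 0.23 (adjusted p = 0.0078). Insig1, whose protein retains SREBP in the endoplasmic reticulum and whose gene is itself a target of SREBP, was at 193 to 252 CPM in all WT libraries and went from 152, 165 and 160 CPM to 88.5, 62.4 and 71.5 CPM in Lkb1-/- cells (difference -1.08 ± 0.21, adjusted p = 0.031). Also called without the block were Fdft1 (squalene synthase, -1.02 ± 0.18), Cyp51 (-1.04 ± 0.21), Lss (-0.94 ± 0.19), Hsd17b7 (-0.88 ± 0.17) and Sqle (-0.76 ± 0.15). The calls for Hmgcs1 and Fdft1 were kept in all 23 alternative settings, and those for Insig1, Cyp51, Lss, Hsd17b7 and Sqle were lost in 9 or 10 of them. Srebf2, which encodes SREBP2, was called only with the block, at -0.49 ± 0.07.

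For each of the 21 genes the 3 same-number responses in Lkb1-/- cells were all below 0 and all below the 3 in WT cells. Over all genes tested, 27.2% had 3 Lkb1-/- responses below 0 and 14.1% had 3 below those in WT cells. The medians over the list were -0.59, -1.03 and -0.93 for Lkb1-/- replicates 1, 2 and 3, and 0.09, 0.04 and 0.02 for the WT replicates. The summed level of the 21 genes was 4567 to 5847 CPM in the 6 WT libraries and 3830 to 4229 CPM in Lkb1-/- controls. After IL-1β the sum was 2128 to 2592 CPM in Lkb1-/- cells, and replicate 1, with the most pairs outside genes, had the smallest fall. Aacs, an acetoacetyl-CoA synthetase that feeds lipid synthesis, stood outside the list and was named because its own difference was called below 0. Its direction is therefore not independent evidence either. Aacs was at 89.7 to 103 CPM in WT libraries and went from 130, 145 and 145 CPM to 87.6, 87.7 and 90.9 CPM in Lkb1-/- cells (difference -0.70 ± 0.12, adjusted p = 0.0096).

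**Figure D3:**
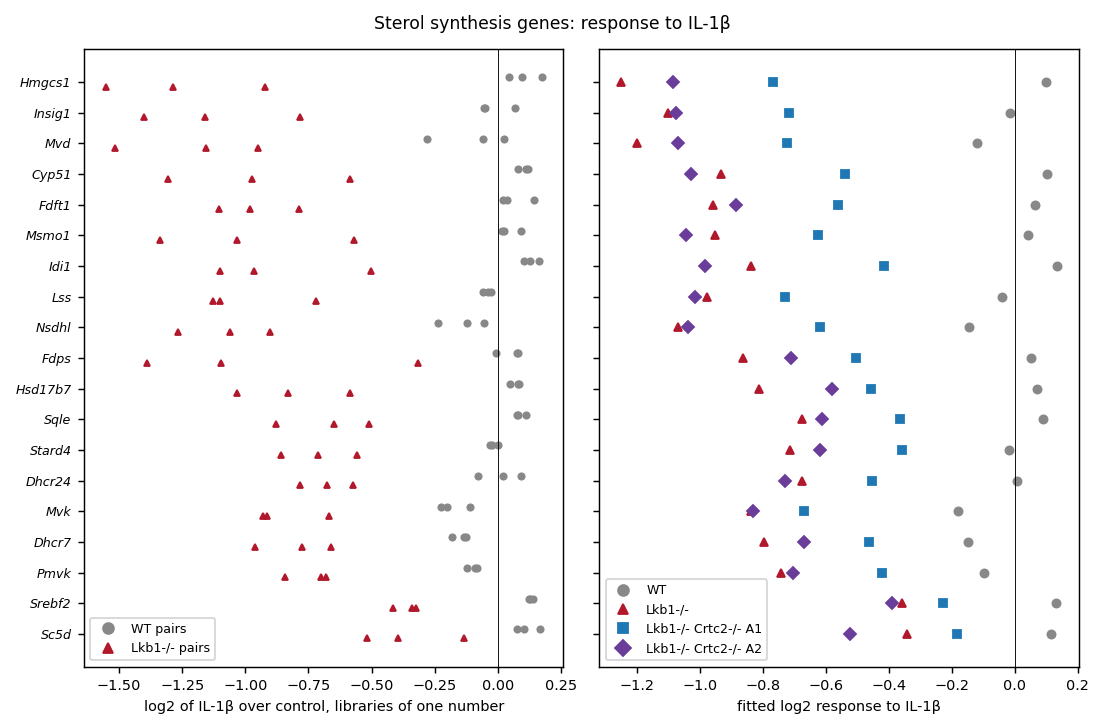
Log2 response to IL-1β of 19 of the 21 sterol synthesis genes, ordered by the difference between the lines. Left, each pair of libraries with one replicate number (grey circles WT, red triangles Lkb1-/-), with every red triangle left of 0; right, fitted responses of the 4 lines, where clones A1 and A2 have medians of -0.46 and -0.73 over all 21.

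The window of Hmgcs1 (chr13:119690101-119690400, plus strand) is shown since it was the only one of the 14 sterol genes with a window that held TCACNCCAC, a sterol regulatory element that was chosen after the values were seen. Capitals mark the core TGACG, read on the other strand as CGTCA, and after it the sterol element.
Hmgcs1: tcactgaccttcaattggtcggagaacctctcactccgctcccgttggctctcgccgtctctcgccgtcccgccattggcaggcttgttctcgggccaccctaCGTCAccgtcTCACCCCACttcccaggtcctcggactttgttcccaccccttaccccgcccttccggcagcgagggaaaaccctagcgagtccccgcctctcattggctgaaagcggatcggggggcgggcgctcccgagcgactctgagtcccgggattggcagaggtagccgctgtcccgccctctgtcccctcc
The sterol element occurs in 1.44% of all 27025 genes with a window. The core TGACG was in 7 of the 14 sterol genes with a window (50%), beside 23.0% of all genes. Ch25h, whose enzyme makes 25-hydroxycholesterol, an oxysterol that holds SREBP back, was also measured. It had at most 3 counts in WT libraries and went from 2.74, 4.01 and 2.81 CPM to 20.4, 31.4 and 29.1 CPM in Lkb1-/- cells. Its part in the fall of the sterol genes was not tested.

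Interferon-stimulated genes were higher after IL-1β in WT cells, with a large spread between replicates, and had smaller responses in Lkb1-/- cells. These genes encode antiviral effectors and GTPases and are switched on by interferon signalling. None of 27 tested was called without the block, where 1 had an unadjusted p under 0.05, and with the block 19 were called below 0 and none above, beside 3.63% of all genes tested below 0. With a block across all genotypes 3 of the 27 were called below 0 and 0 above, beside 1.03% and 0.748% of all genes. The median log2 response was 1.45 in WT and 0.30 in Lkb1-/- cells, with a median difference of -0.87. Without the block 1 of the 27 rose in WT cells and 0 in Lkb1-/- cells, beside 1.53% and 2.65% of all genes. With 1 library left out the WT count lay between 0 and 17. It was 17 without WT control replicate 3, beside 252 of 17962 genes tested. With no filter on low counts 25 rose in WT and 7 in Lkb1-/- cells, beside 511 and 662 of 36796 genes tested. With the block 26 of the 27 rose in WT cells, beside 7.87% of all genes tested, and 10 rose and 2 fell in Lkb1-/- cells, beside 8.65% and 14%.

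Isg15, a ubiquitin-like modifier, was at 3.30, 5.43 and 25.1 CPM in WT controls and 8.69, 19.1 and 72.7 CPM after IL-1β, in the order of replicates 1, 2 and 3. In Lkb1-/- cells Isg15 was at 2.92, 4.64 and 5.81 CPM before and 4.03, 5.73 and 5.95 CPM after. The WT groups overlapped, while every WT library with IL-1β was above the control of its own number. The difference was -1.34 ± 0.86 without the block (adjusted p = 1) and -1.34 ± 0.13 with it (8.5e-07). Gbp7, an interferon-inducible GTPase, was at 3.95, 8.31 and 25.1 CPM before and 11.7, 25.1 and 71.5 CPM after IL-1β in WT cells, and at 10.7, 17.8 and 21.1 CPM and then 9.57, 18.1 and 20.1 CPM in Lkb1-/- cells. With the block its difference was -1.61 ± 0.09 (adjusted p = 2.5e-10, and 0.99 without it). Gbp3, Gbp2, Ifit1, Mx2 and Irf7 had differences with the block between -1.54 and -1.37, and Ddx58 and Ifih1, which sense viral RNA, -0.84 and -0.74. Oasl2, not on the list, was at -1.72 ± 0.16.

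The summed level of the 27 genes was 310, 404 and 884 CPM in WT controls 1, 2 and 3, and 492, 780 and 1766 CPM after IL-1β, so that the replicate-3 WT libraries stood apart under both treatments. In Lkb1-/- cells the sums lay between 276 and 364 CPM before and between 284 and 424 CPM after IL-1β. Without both WT replicate-3 libraries, 17 of the 27 were still called below 0 with the block, and the median difference was -1.06. Without the block, leaving out only the stimulated WT replicate 3 moved the median from -0.87 to -0.07, and leaving out only the WT control replicate 3 moved it to -1.98. Genes of MHC class I presentation, which interferon also raises, had no call among 13 tested without the block and 5 below 0 with it, beside 3.63% of all genes, with the peptide transporter Tap1 at -0.87 ± 0.15. Cxcl10, an interferon-induced chemokine, was at 5.07, 7.32 and 14.7 CPM and then 19.0, 26.8 and 68.2 CPM in WT cells, against 4.21, 6.13 and 4.62 CPM and then 10.8, 13.2 and 11.9 CPM in Lkb1-/- cells (difference with the block -0.75 ± 0.15, adjusted p = 0.003).

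**Figure D4:**
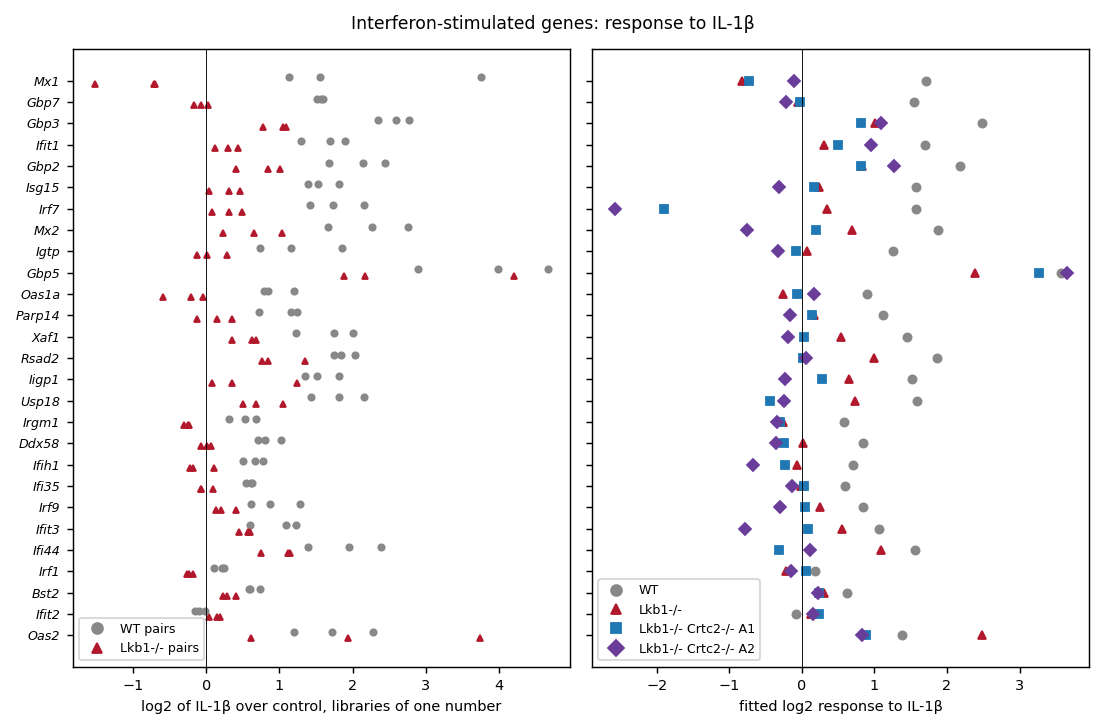
Log2 response to IL-1β of 27 interferon-stimulated genes, ordered by the difference between the lines. Left, each pair of libraries with one replicate number (grey circles WT, red triangles Lkb1-/-); right, fitted responses of the 4 lines; for 24 of the 27 genes all red triangles lie left of all grey circles, as for 14.1% of all genes tested, and clones A1 and A2 have medians of 0.05 and -0.16.

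The window of Isg15 (chr4:156200769-156201068, minus strand) is shown as an example of the interferon element GAAANNGAA, which was chosen after the values were seen. Capitals mark overlapping copies of that element and, after them, an NF-κB match.
Isg15: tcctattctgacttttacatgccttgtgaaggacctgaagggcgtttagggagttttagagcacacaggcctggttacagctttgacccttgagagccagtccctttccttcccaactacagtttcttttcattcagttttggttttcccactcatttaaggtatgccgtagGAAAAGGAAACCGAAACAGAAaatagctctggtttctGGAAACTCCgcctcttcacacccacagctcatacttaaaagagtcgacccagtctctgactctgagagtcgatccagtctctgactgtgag
The interferon element was found in 15 of the 21 listed genes with a window (71.4%) and in 9.76% of all genes, and the STAT letters in 8 of the 21 (38.1%) and 9.55% of all genes.

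Other genes had differences below 0 and rose more in WT cells, mostly from a low level that was already exceeded in Lkb1-/- controls. C3, the central complement component (chr17:57203970-57228136), was at 2.90, 3.73 and 4.83 CPM in WT controls and 28.8, 38.6 and 48.3 CPM after IL-1β. Lkb1-/- libraries had 136, 172 and 160 CPM before and 275, 395 and 422 CPM after. Every Lkb1-/- control was thus above every stimulated WT library. The rise was 10.2-fold in WT and 2.34-fold in Lkb1-/- cells, a difference of -2.12 ± 0.36 (adjusted p = 0.008). Chil1, a chitinase-like protein, rose 11.6-fold in WT cells, from 0.365 to 0.553 CPM up to 3.92 to 6.44 CPM, and 1.86-fold in Lkb1-/- cells, from 7.74 to 9.49 CPM up to 12.4 to 19.0 CPM (difference -2.65 ± 0.42, adjusted p = 0.0035).

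Slc16a9, of the monocarboxylate transporter family, was at 0.313, 0.460 and 0.626 CPM before and 4.69, 5.84 and 5.53 CPM after IL-1β in WT cells. In Lkb1-/- cells it went from 1.27, 1.93 and 1.62 CPM to 3.45, 4.51 and 4.27 CPM, so that the order of the lines was opposite before and after IL-1β (difference -2.18 ± 0.27, adjusted p = 0.0004). Rab15, a small GTPase of endosomes, rose 7.24-fold in WT cells from at most 0.209 CPM and lay between 5.30 and 7.19 CPM in all Lkb1-/- libraries (difference -2.89 ± 0.34, adjusted p = 0.00028). Sh2b2, an adaptor of receptor tyrosine kinases, and Il7, a lymphocyte growth factor, showed the same form, with differences of -0.95 ± 0.15 and -1.28 ± 0.26. The call for Sh2b2 was kept in all 23 alternative settings, and that for Il7 was lost in 14. Il7 was at 0.322 to 0.522 CPM before and 0.666 to 1.29 CPM after IL-1β in WT cells and at 9.09 to 11.4 CPM in Lkb1-/- cells.

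In the list of acute-phase and host defence effectors, 23 were tested, of which 13 rose in WT and 15 in Lkb1-/- cells, beside 1.53% and 2.65% of all genes tested. Without the block Slc39a14 was called above 0 and C3 below 0, beside 0.137% and 0.108%, and with it 3 were above and 6 below, beside 2.09% and 3.63%. Sod2, the mitochondrial superoxide dismutase, was above 0 with the block: it went from 127, 124 and 119 CPM to 174, 197 and 204 CPM in WT cells and from 129, 143 and 136 CPM to 347, 533 and 521 CPM in Lkb1-/- cells (difference 1.13 ± 0.13, adjusted p = 7.8e-06, and 0.076 without it). Gch1, which makes the cofactor of nitric oxide synthase, was the other addition above 0 (0.79 ± 0.16). Below 0 with the block were the complement protease C1s1 (-1.27 ± 0.12), its partner C1ra, the pentraxin Ptx3, the metallothionein Mt2 (-0.56 ± 0.08) and Steap4, which had at most 3 counts in WT controls and for which no size is given. Ceruloplasmin (Cp), outside this list, went from 1.74, 3.57 and 7.72 CPM to 22.9, 36.2 and 55.2 CPM in WT cells and from 18, 19.7 and 24.5 CPM to 33.1, 35.0 and 48.1 CPM in Lkb1-/- cells (difference with the block -2.29 ± 0.13).

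Of 20 chemokines tested, 11 rose in WT cells without the block, and 9 rose and 1 fell in Lkb1-/- cells. Of all genes tested 1.53% rose in WT cells, and 2.65% rose and 2.09% fell in Lkb1-/- cells. No chemokine had a called difference of responses without the block, where 5 had an unadjusted p under 0.05, and Ccl7, Ccl9 and Cxcl10 were called below 0 with it, beside 3.63% of all genes. The neutrophil chemokine Cxcl1 went from 6.63, 3.96 and 3.86 CPM to 153, 157 and 152 CPM in WT cells and from 12.5, 13.3 and 9.14 CPM to 573, 549 and 611 CPM in Lkb1-/- cells. Its log2 responses were 4.99 and 5.63, and the difference of 0.64 ± 0.28 had a 95% interval of 0.04 to 1.24 and an adjusted p of 0.82. For Cxcl5 and Ccl2, levels after IL-1β were also higher in every Lkb1-/- library, and the differences of responses were -0.34 ± 0.24 (interval -0.86 to 0.17) and -0.27 ± 0.15 (interval -0.58 to 0.04). Cxcl2 had no read in WT controls, so that its response there has no finite size, and reached 0.469 to 0.747 CPM in WT and 29.6 to 31.6 CPM in Lkb1-/- cells. The reverse held for Ccl20, a chemokine for CCR6-bearing cells, which went from 1.21, 1.08 and 0.6 CPM to 61.2, 62.2 and 60.7 CPM in WT cells and had 0 reads in each of the 6 Lkb1-/- libraries, which allows up to 3 counts per library. The fit gives no usable difference for a line at 0 throughout.

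Of 20 NF-κB subunits, inhibitors and feedback genes, 10 rose in WT and 9 in Lkb1-/- cells, beside 1.53% and 2.65% of all genes tested. None was called without the block, where 3 had an unadjusted p under 0.05, and the median difference was 0.01. With the block Birc3 was above 0 (0.39 ± 0.09), and Bcl3 (-0.86 ± 0.09) and Nfkbiz (-0.54 ± 0.15), atypical IκB proteins, were below, beside 2.09% above and 3.63% below over all genes. Nfkbia, the inhibitor IκBα, rose 2.42-fold in WT and 2.84-fold in Lkb1-/- cells. Among 19 genes of the IL-1 receptor and its proximal signalling the only call was Myd88 below 0 with the block, as for 3.63% of all genes. Its difference was -0.30 ± 0.08, and it was at 39.8 to 48.7 CPM and then 48.1 to 61.1 CPM in WT cells and at 35.0 to 41.8 CPM in all Lkb1-/- libraries.

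**Figure D5:**
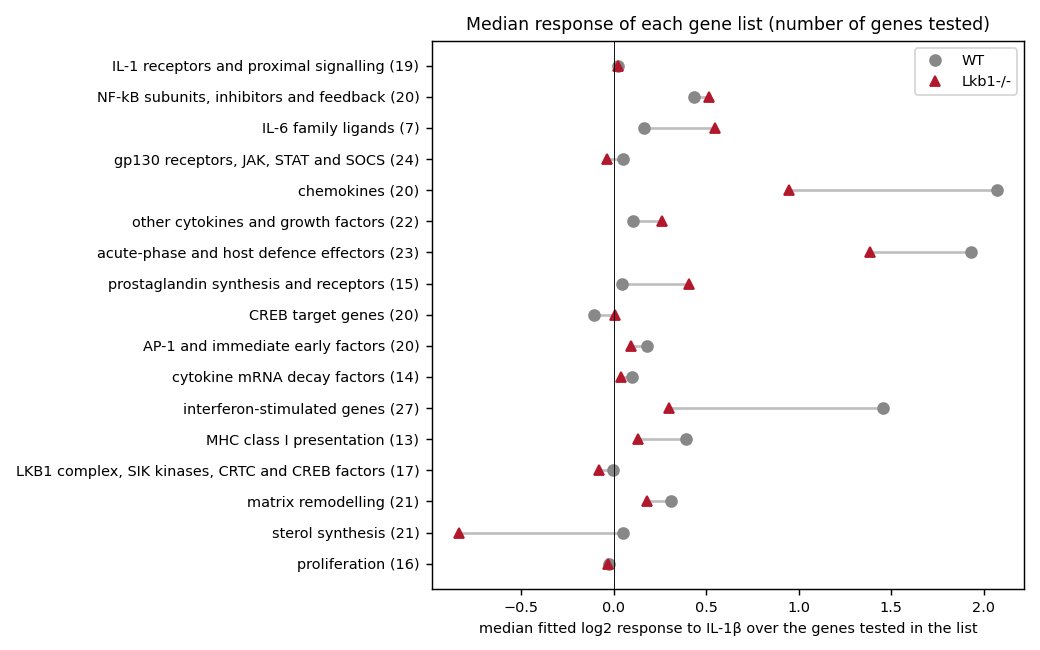
Median fitted log2 response to IL-1β (horizontal axis) in WT cells (grey circles) and Lkb1-/- cells (red triangles) over the genes tested in each of 17 lists, with their number in brackets. The medians lie farthest apart for interferon-stimulated genes (1.45 and 0.30), chemokines (2.07 and 0.95) and sterol synthesis (0.05 and -0.84). Of the 20 chemokines, 6 had at most 3 counts in every library of some group, and without these 6 the chemokine medians were 2.03 and 1.28. The median of the per-gene differences was smaller for chemokines, -0.31 and without these 6 -0.13, beside -0.02 over all genes tested.

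Of 20 known CREB target genes, none was called without the block, where 2 had an unadjusted p under 0.05, and 4 were below 0 with it (Pde4b, Sik1, Junb and Egr1), beside 3.63% of all genes tested. The median difference was 0.10, and 0.07 without Ppargc1a, which had no read in 5 of the 6 WT libraries. Pde4b, which degrades cAMP, was at 2.88 to 4.46 CPM before and 4 to 7.34 CPM after IL-1β in WT cells and at 183 to 226 CPM in all Lkb1-/- libraries (difference with the block -0.53 ± 0.10, adjusted p = 0.0017). Sik1 was at 20.1 to 23.6 CPM and then 29.2 to 33.2 CPM in WT cells and at 39.4 to 53.2 CPM in Lkb1-/- cells (-0.45 ± 0.09 with the block). It was the only call among 17 genes of the LKB1 complex, SIK kinases, CRTC and CREB factors, beside 3.63% of all genes below 0. Of 14 factors of cytokine mRNA decay, Zfp36, which encodes the destabilizing protein tristetraprolin, and Zfp36l2 were below 0 with the block, beside 3.63% of all genes. Zfp36 was at 32.0 to 37.7 CPM in all WT libraries and went from 12.7, 15.1 and 15.2 CPM to 10.6, 11.2 and 11.4 CPM in Lkb1-/- cells (difference -0.46 ± 0.09, adjusted p = 0.0017 with the block and 0.11 without it). Of 20 AP-1 and immediate early factors, 3 were below 0 with the block, beside 3.63% of all genes, and none without it, and no gene of 16 proliferation markers was called in either comparison, with 0 of the 16 at an unadjusted p under 0.05 without the block, where 985 of all genes tested were.

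The remaining genes below 0 fell in Lkb1-/- cells without the block. Eps8, a regulator of actin filaments, was at 350, 307 and 324 CPM and then 298, 288 and 290 CPM in WT cells and went from 175, 157 and 157 CPM to 89.6, 87.3 and 83.2 CPM in Lkb1-/- cells (difference -0.75 ± 0.10, adjusted p = 0.00055). Notch1, a receptor of cell contact signalling, went from 25.6, 33.7 and 36.0 CPM to 14.1, 14.0 and 14.4 CPM in Lkb1-/- cells, and from 63.8, 65.5 and 64.8 CPM to 51.8, 56.4 and 51.1 CPM in WT cells (difference -0.88 ± 0.17, adjusted p = 0.024). Both genes were lower in every stimulated WT library than in every WT control, and with the block these smaller falls in WT cells were called too. Gja1, which encodes a connexin of gap junctions, was higher in each stimulated WT library than in each control and lower in each stimulated Lkb1-/- library than in each control, although without the block only its fall in Lkb1-/- cells passed (difference -0.47 ± 0.09, adjusted p = 0.026). The calls for Notch1 and Gja1 were each lost in 8 of 23 alternative settings. Of 21 matrix remodelling genes none was called without the block and 2 had an unadjusted p under 0.05, with 1 above and 3 below 0 with the block, beside 2.09% and 3.63% of all genes. Bglap3 and the gene model Gm37784 were measured under 1 CPM throughout, and their calls were lost in 13 and 12 of 21 settings. The matrix protease Adamts1 had no called response in either line without the block. It went from 111, 114 and 91.5 CPM to 129, 151 and 122 CPM in WT cells and from 130, 139 and 140 CPM to 81.8, 87.6 and 84.2 CPM in Lkb1-/- cells (difference -1.03 ± 0.06, adjusted p = 7.6e-10 with the block and 0.5 without it).

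In the clones, labelled as lacking Crtc2 as well as Lkb1, the called genes were measured side by side with the responses of both other lines. Over the 24 genes above 0 the median log2 response was -0.01 in WT, 1.33 in Lkb1-/-, 0.92 in A1 and 1.12 in A2 cells. Over the 19 below 0 it was 0.10, -0.81, -0.38 and -0.58. Both gene sets were selected by the difference between Lkb1-/- and WT responses, so the selection itself set the medians of these lines apart. The place of the clone medians between them is not a test of Crtc2 loss. Lif had responses of 1.61 in A1 and 1.93 in A2 beside 3.05 in Lkb1-/- cells, Tbx3 0.63 and 1.27 beside 1.31, and Slc39a14 0.01 and 0.32 beside 0.68. Sema3c had 1.10 and 1.85 beside 1.55. Hmgcs1 had -0.77 and -1.09 beside -1.25, and C3 0.77 and 1.73 beside 1.22. The difference between the clones and Lkb1-/- cells was not tested here.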

How the data were processed

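RNA-seq was run on 24 libraries in 8 groups of 3, of which the 12 WT and Lkb1-/- libraries carry the comparison. The deposited values are raw counts of read pairs per gene, 1 table per library, made by the authors with Trim Galore 0.6.0 and STAR 2.7.8a on mouse build mm10 (GRCm38). The column for the second strand setting was used, and the 4 lines that name no gene entered neither library sizes nor tests. These lines held 28.3 to 34.4% of pairs in the 12 WT and Lkb1-/- libraries and 26.7 to 34.0% in the clones. Gene positions are those of GENCODE on GRCm38.

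Genes were filtered by group (filterByExpr, minimum count 10, minimum total 15), which left 17522 of 55471. Counts were scaled by TMM and fitted with edgeR 4.0.16 (R 4.3.3) by the older form of the quasi-likelihood test, all 24 libraries in 1 fit, with Benjamini-Hochberg adjustment over all genes tested and a threshold of 0.05. CPM values use the TMM-scaled library sizes. The counting precision behind a value is limited by 38842901 to 48594394 counts on genes per library. A second fit gave each genotype its own term for every replicate number (the block). The numbers come from the sample titles, which do not say what they mark. As a check of pairing, deviations from group means correlated at 0.13 to 0.38 for the 6 same-number pairs within a genotype, at 0.036 to 0.26 for same-number pairs across genotypes and at -0.29 to 0.086 for different numbers. Within a genotype all 6 were over 0.1, so the numbers were taken to pair the libraries. No 2 libraries held identical counts, and the scripts were tested on simulated data.

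Genes were named by rule: Stk11; genes the study names for IL-1β; up to 15 per direction with the smallest adjusted p without the block; up to 12 per direction with the block and a log2 difference over 1; and up to 4 per list by unadjusted p. Other genes named were chosen after their values were seen, among them Gdnf, Ltbp2, Pim2, Ch25h, Ccl20, Isg15 and further members of the lists. The comparison, members and lists were chosen with earlier results of these data known. Alternatives were other strand settings, scalings, filters and tools (DESeq2 1.42.0), other blocks and leaving out libraries. Promoter windows are from RefSeq. Some genes of the lists enter the counts and medians but are not reported here by name.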

Additional observations from a re-analysis of the deposited data

Results flagged for a closer look

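Each of the 43 genes was singled out because the test of the interaction found its log2 response to IL-1β to differ between Lkb1-/- and WT cells. Values in brackets are the Lkb1-/- response minus the WT response.

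The farthest above 0 were Ptprq (3.06), Ppm1h (2.26), Lif (2.24), Gm43445 (1.99), Afap1l2 (1.72), Ltbp2 (1.53), Tbx3 (1.49), P2ry10b (1.44), Lmo4 (1.38), Map2k6 (1.37), Sema3c (1.31) and Ttc39c (1.25). The smaller differences above 0 were Cpeb2 (1.20), Gdnf (1.19), Cfap69 (1.13), Akap12 (0.97), Pim2 (0.96), Slc39a14 (0.77), Vegfc (0.74), Plscr1 (0.72), Rab11fip1 (0.70), Dpy19l1 (0.66), Slco3a1 (0.53) and Tyms (0.41).

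Below 0 the farthest were Gm37784 (-3.02), Rab15 (-2.89), Bglap3 (-2.84), Chil1 (-2.65), Slc16a9 (-2.18), C3 (-2.12), Hmgcs1 (-1.35), Il7 (-1.28), Insig1 (-1.08) and Cyp51 (-1.04). The others were Fdft1 (-1.02), Sh2b2 (-0.95), Lss (-0.94), Notch1 (-0.88), Hsd17b7 (-0.88), Sqle (-0.76), Eps8 (-0.75), Aacs (-0.70) and Gja1 (-0.47).

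Bglap3 and Gm37784 have among the largest sizes and lay under 1 CPM in all 12 libraries.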

How the results depend on the processing

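The 43 calls without the block became 76 with upper quartile scaling, 347 with no filter on low counts, 70 with at least 10 counts in every library, 121 with DESeq2, 70 with only the groups compared, 311 with a replicate block across all genotypes and 1003 with the replicate block within each genotype. Without the replicate-1 libraries, an alternative added after seeing the data, 147 were called. Leaving out 1 library gave 23 to 57 calls, the lowest without the Lkb1-/- control replicate 2 or 3, with 25 without Lkb1-/- IL-1β replicate 3 and 28 without WT IL-1β replicate 2. The WT response (396 genes) moved to 954 with no filter, 1629 and 2823 with the replicate block across and within genotypes, 624 with DESeq2 and 921 without the replicate-1 libraries, and lay between 203 and 412 when 1 library was left out. The Lkb1-/- response (831) moved to 1428 with no filter, 2601 and 3966 with these blocks and 1534 without the replicate-1 libraries, and lay between 544 and 763.

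With the block, 1003 calls became 636 without WT replicate 2, 651 without WT replicate 3 and at most 969 without any other pair. Of the 1003, 36.6% were above 0, against 49.0% with DESeq2's size factors, 53.0% in a fit of the 12 libraries alone and 60.5% without Lkb1-/- replicate 1. The cause was not tested. For the WT response the share that rose was 67.7%, and 57.4% with upper quartile scaling, 53.6% with no filter, 48.8% with the block within genotypes and 59.2% to 84.1% with 1 library left out. For the Lkb1-/- response this share was 55.8%, and 46.4% with no filter and 38.2% with the block within genotypes. It lay between 52.2% and 69.7% with 1 library left out, the highest without the Lkb1-/- IL-1β replicate 1.

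Of the 43 genes, 21 passed in every setting tried and 22 missed the threshold in at least 1, with no change of direction. Lost in at most 5 settings were Gm43445, P2ry10b, Ptprq, Cpeb2 and Ttc39c, and in 7 to 14 Vegfc, Gja1, Notch1, Gdnf, Hsd17b7, Insig1, Lss, Sqle, Cyp51, Rab11fip1, Slco3a1, Akap12, Gm37784, Pim2, Bglap3, Ltbp2 and Il7. Sterol genes called below 0 without the block numbered 7, between 2 and 10 with 1 library left out, 5 with only the groups compared, 15 with DESeq2, 18 without the replicate-1 libraries, 20 with the block across genotypes, 21 with no filter, and 20 or 21 in the blocked fits that left out a pair. Interferon-stimulated genes called below 0 numbered 19 with the block and 15 to 18 with a pair left out, against 0 without it by edgeR and by DESeq2, 14 with no filter and 3 with the block across genotypes.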
